A study of Homo sapiens with 9 samples.

Results

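The nuclear-encoded subunits of the mitochondrial respiratory chain and ATP synthase were followed in Hep3B, a human hepatocellular carcinoma cell line. The members were the nuclear genes for complex I (37 genes), complex II (4), complex III (8), complex IV (9) and ATP synthase (15), chosen by gene name from the structural subunits of each complex, which gave 73 of 60683 genes listed. All 73 members passed the filter of at least 10 counts summed over the 9 libraries, as did 22672 genes in all. The cells of the first group received vehicle (DMSO) and were kept at 20% O2 (vehicle 20% O2), those of the second received vehicle at 1% O2 (vehicle 1% O2), and those of the third received 32-134D, an inhibitor of the hypoxia-inducible factors HIF-1 and HIF-2, at 1% O2 (32-134D 1% O2), all for 24 h, with 3 libraries in each group. No library of cells given 32-134D at 20% O2 was analysed here, and the labels state no dose. All libraries came from this 1 cell line in culture, in which 13 of 13 hepatocyte-lineage markers had counts. So did 5 of 5 fibroblast, 4 of 5 blood cell and 2 of 4 endothelial markers. The T cell gene CD3E and the endothelial genes KDR and VWF had none.

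The respiratory chain sits in the inner mitochondrial membrane. Complex I takes electrons from NADH and complex II takes them from succinate, and both pass them to ubiquinone, from which complex III hands them to cytochrome c and complex IV to oxygen. Complexes I, III and IV pump protons, and ATP synthase lets them flow back through its c-ring to make ATP. Most subunits are encoded in the nucleus and imported, while a small core is made inside the organelle from mitochondrial DNA, so that every complex other than complex II is built from both genomes. Oxygen is the substrate of complex IV, and the HIF factors are known to shift cells from respiration toward glycolysis.

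Read totals ran from 6013980 to 40549699 counts per library, and the biological coefficient of variation of the fit was 10.5%. The 8 known HIF target genes that were checked all rose at 1% O2 and all fell with 32-134D at 1% O2. With 32-134D at 1% O2, 7 of these 8 were still above vehicle 20% O2 at a false discovery rate below 0.05 and more than 1.5-fold. The median log2 change of the 8 in that comparison was 1.00. The fibroblast marker list (5 of 5 genes with a count) also moved with the groups, with a summed level of 32.8 to 37.5 CPM (counts scaled to library size) in vehicle 20% O2, 13.3 to 14.8 in vehicle 1% O2 and 28.9 to 30.5 in 32-134D 1% O2. The blood cell and endothelial genes with enough counts to test, CD14 (491 counts in all) and PECAM1 (131), also fell at 1% O2, by 1.29 and 1.88 on the log2 scale, and rose with 32-134D by 0.92 and 1.93. The blood cell list (4 of 5 genes with a count, CD3E at 0) summed to 1.57 to 3.51 CPM, 0.707 to 1.59 and 1.74 to 3.06 in the same order of groups, and the endothelial list (2 of 4, KDR and VWF at 0) to no more than 1.28 in any library. The hepatocyte-lineage list summed to 25640 to 26160 CPM, 19320 to 23600 and 16940 to 24070, and 4 of its 13 genes fell and none rose at 1% O2 at a false discovery rate below 0.05, with the largest change in APOB (-3.47, then 3.12 with 32-134D). The part of these markers in the results was not tested. In vehicle 20% O2, replicate 1 was the highest of its group for 65 of 73 members, while in vehicle 1% O2 replicate 1 was the lowest for 61 and in 32-134D 1% O2 replicate 3 was the lowest for 56. That last library stood apart beyond the subunits as well: its counts differed from those of replicates 1 and 2 by a chi-square per degree of freedom of 36.4 and 32.5, against 2 between those replicates, and the hepatocyte genes TF and TTR stood at 584 and 9.79 CPM in it, against at least 1505 and 34.5 in the others of its group. Replicate 1 of vehicle 20% O2 also stood apart beyond the subunits on this chi-square, at 6.21 and 12 from replicates 2 and 3, against 1.62 between those. Replicate 1 of vehicle 1% O2 did so at 7.9 and 11.8, against 2.48. For the comparisons with 32-134D, the members' medians and counts past the thresholds are given with and without 32-134D replicate 3.

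The first comparison asked how subunit transcripts differ between vehicle-treated cells at 1% and at 20% O2. Small rises predominated, and they were uneven between and within complexes. With edgeR's quasi-likelihood test, 38 of 73 members rose and 9 fell at a false discovery rate (FDR, the adjusted p-value) below 0.05, which is 52.1% and 12.3% of the members, beside 27.9% and 25.6% of all genes tested. Few of these changes were large. With a change of more than 1.5-fold required as well, 11 members rose and 1 fell (15.1% and 1.37%), beside 19.5% and 20.3% of all genes. The median log2 fold change of the members was 0.27, against 0.001 for all genes tested, and the members ran from -0.80 (ATP5MC1) to 1.13 (NDUFC1). Without vehicle 20% O2 replicate 3, 6 members rose past both thresholds in place of 11. The 3 libraries of each group did not overlap, on the higher side, for 38 members (32.3% of all genes) and on the lower side for 10 (28.1% of all genes). These are levels in bulk RNA, in which fewer cells carrying a transcript and less of it per cell cannot be told apart.

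The size of the common rise depended on how libraries were scaled. When libraries were scaled by their total count instead of by TMM, the members' median fell to 0.05 while that of all genes fell to -0.21, and 22 members rose and 14 fell at the FDR alone. The members' median minus that of all genes was 0.27 with TMM, 0.26 with total library size, 0.26 with upper-quartile scaling and 0.17 after a trend over transcript length was removed. The members' transcripts are short, with a median length of 750 bases against 1950 for all genes tested.

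**Figure D1:**
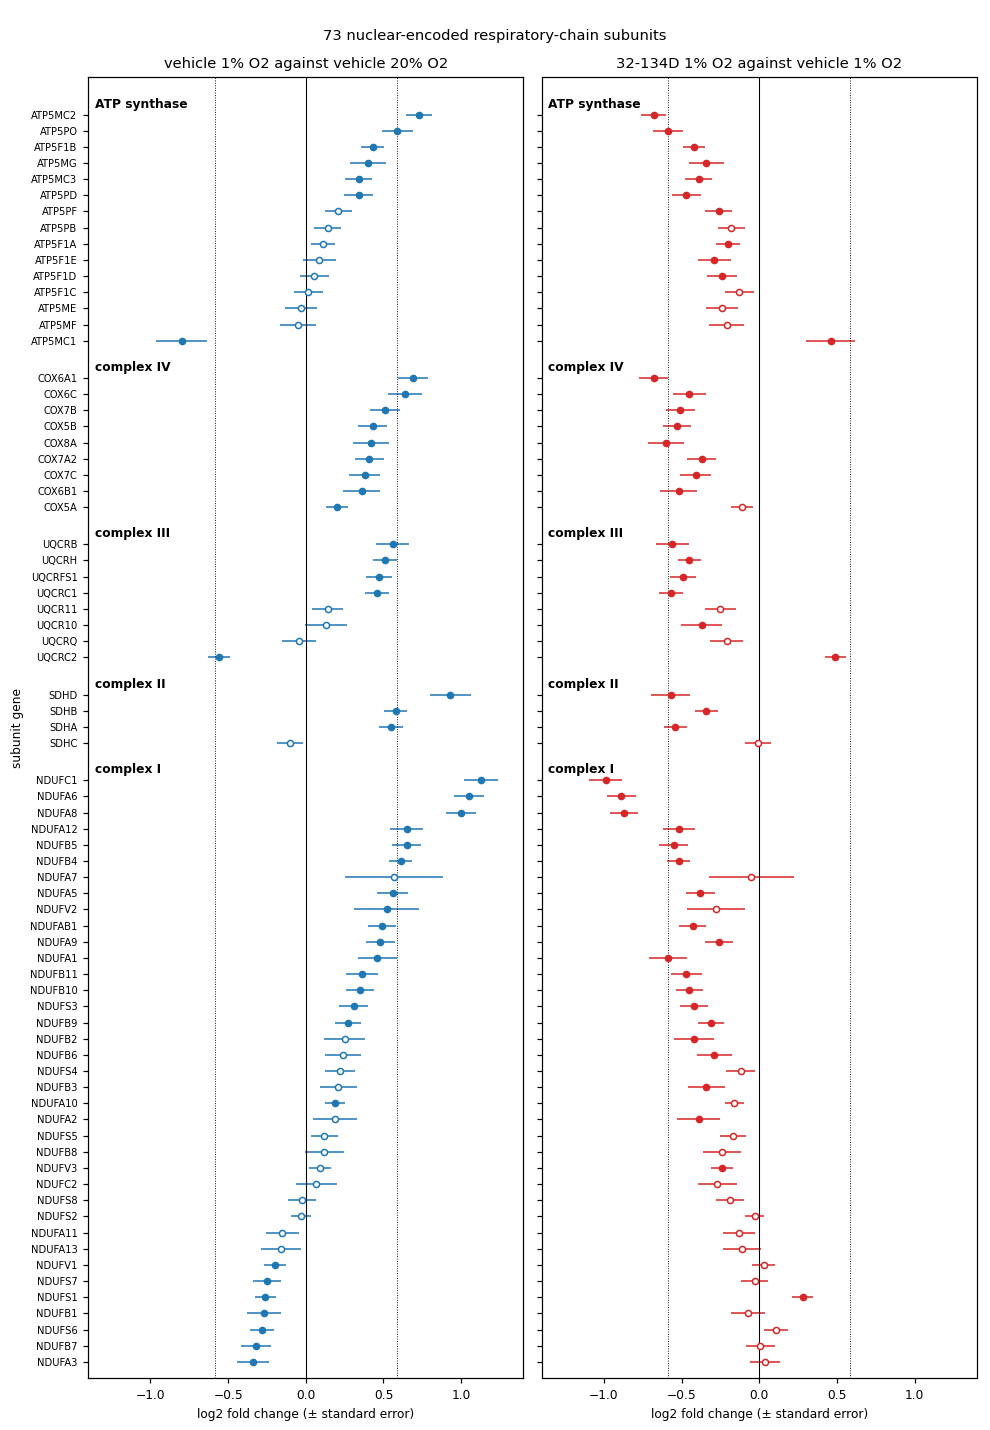
Each row is 1 of the 73 subunit genes, ordered within its complex by the change at 1% O2. The horizontal axis is the log2 fold change with its standard error, for vehicle 1% O2 against vehicle 20% O2 (left, blue) and 32-134D 1% O2 against vehicle 1% O2 (right, red). Filled points passed an FDR of 0.05, and dotted lines mark 1.5-fold. Most filled points lie above 0 on the left (38 above, 9 below) and below 0 on the right (3 above, 45 below), with TMM scaling.

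Complex I, the entry point for electrons from NADH, was split between its parts. Among the 30 accessory subunits, which surround the catalytic core and are needed for assembly and stability, 14 rose and 4 fell at the FDR alone, whereas among the 7 nuclear core subunits 2 rose (NDUFV2, NDUFS3) and 3 fell (NDUFV1, NDUFS7, NDUFS1). The accessory median log2 fold change was 0.25 and the core median was -0.03, and the difference between the parts was not tested. With total library size the core counts were 0 up and 5 down, and the accessory counts 9 up and 6 down. Of 20 alternative fits, NDUFV2 passed the FDR in 5 and NDUFS3 in 13, against 16 for NDUFV1, 19 for NDUFS7 and 20 for NDUFS1.

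The 3 complex I genes with the smallest FDR were all accessory. NDUFA6, an LYR-motif protein that docks the mitochondrial acyl carrier protein on the matrix arm, stood at 64.5, 55.4 and 52.6 CPM in vehicle 20% O2, at 112, 123 and 121 in vehicle 1% O2 and at 69.0, 66.9 and 56.7 in 32-134D 1% O2. Every vehicle 1% O2 library lay above all of the other 6, and the other two groups overlapped. Its log2 fold change was 1.05 ± 0.096 (SE, edgeR FDR = 2.80e-07) at 1% against 20% O2 and -0.89 ± 0.093 (edgeR FDR = 2.15e-06) with 32-134D.

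NDUFA8, an accessory subunit on the intermembrane-space side, showed the same order. Its levels were 35.5, 31.4 and 30.6 CPM in vehicle 20% O2, 62.8, 66.9 and 64.9 in vehicle 1% O2 and 38.2, 37.0 and 30.8 in 32-134D 1% O2, a log2 change of 1.00 ± 0.095 (edgeR FDR = 4.62e-07) and then of -0.87 ± 0.092 (edgeR FDR = 2.23e-06). NDUFC1, a small subunit of the membrane arm, stood at 24.2, 20.6 and 17.9 CPM, at 42.5, 47.3 and 46.6 and at 23.9, 23.1 and 21.7 in the same order of groups. Its log2 changes of 1.13 ± 0.11 (edgeR FDR = 4.95e-07) and -0.99 ± 0.10 (edgeR FDR = 2.23e-06) were the largest of any member in both comparisons. These 3 genes passed both thresholds in both comparisons under every scaling, filter and left-out library tried.

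NDUFS8, an iron-sulfur core subunit on the path to ubiquinone, had the smallest difference of any complex I member. It stood at 231, 195 and 192 CPM in vehicle 20% O2, 187, 209 and 212 in vehicle 1% O2 and 188, 183 and 161 in 32-134D 1% O2, and the 95% interval of its log2 change at 1% O2 ran from -0.22 to 0.17. NDUFS1, the large iron-sulfur subunit of the NADH-oxidizing module, moved against most of the complex: it stood at 146, 152 and 160 CPM, then at 133, 122 and 127, and with 32-134D at 151, 154 and 160. The vehicle 1% O2 libraries were below all others, with a log2 change of -0.26 ± 0.068 (edgeR FDR = 0.0046) and of 0.28 ± 0.067 with the compound (edgeR FDR = 0.0030). NDUFS1 was named after its values were seen, as 1 of only 3 members that rose with 32-134D at the FDR alone.

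The remaining complex I genes past both thresholds at 1% O2 were NDUFA12, which replaces an assembly factor late in building the matrix arm, and NDUFB5 and NDUFB4 of the membrane arm, with log2 changes of 0.65, 0.65 and 0.61. All 3 calls were lost under total library size, and when vehicle 20% O2 replicate 3 was left out. NDUFA7 had 237 counts over the 9 libraries and NDUFV2 had 677, and they share 32.3% and 28.4% of their exon bases, respectively, with another gene on the same strand. Their standard errors were the widest at 1% O2 (up to 0.31). Sharing on the same strand was not particular to these genes. COX8A, with 30385 counts, shares 34.5% of its exon bases in this way, NDUFB8 33.8%, ATP5PO 19.6% and NDUFC1 18.5% (with MGARP, which had 63 counts). Whether counting used strand is not given in the sources used here, and members that overlap genes on the opposite strand are uncertain to that extent. By share of exon bases the widest overlaps were those of ATP5ME with MYL5 (61.6%), NDUFB11 with RBM10 (44.9%) and NDUFA1 with RNF113A (44.5%). NDUFA7 overlaps RPS28, which had 84481 counts against its 237, over 6.3% of its exon bases, and NDUFB8, with 3578 counts, overlaps HIF1AN, with 20835, over 16.3%.

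Promoter sequences of 4 members that passed both thresholds at 1% O2 are shown, 1 that fell and 3 that rose. Out of a longer list looked up, only those with at least 200 bases outside annotated exons of the gene were printed. Each is the stretch before the most upstream RefSeq start (GRCh38.p14) that lies in no annotated exon of the gene, written 5′ to 3′ on the gene's strand, with the CCAAT box bound by NF-Y in capitals on either strand. ATP5MC1 is at chr17:48892537-48892764 (+), NDUFC1 at chr4:139302552-139302801 (-), NDUFA8 at chr9:122159820-122160029 (-) and COX6A1 at chr12:120437863-120438089 (+).
ATP5MC1: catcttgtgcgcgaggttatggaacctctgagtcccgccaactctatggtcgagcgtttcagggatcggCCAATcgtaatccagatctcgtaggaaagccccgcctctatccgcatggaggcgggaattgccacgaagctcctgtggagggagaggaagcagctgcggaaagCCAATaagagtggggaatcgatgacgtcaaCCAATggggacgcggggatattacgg
NDUFC1: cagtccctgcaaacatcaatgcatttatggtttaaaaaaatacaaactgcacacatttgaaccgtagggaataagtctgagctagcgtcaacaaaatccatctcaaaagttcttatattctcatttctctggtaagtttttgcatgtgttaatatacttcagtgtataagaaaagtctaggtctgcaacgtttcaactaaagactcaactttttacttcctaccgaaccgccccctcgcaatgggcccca
NDUFA8: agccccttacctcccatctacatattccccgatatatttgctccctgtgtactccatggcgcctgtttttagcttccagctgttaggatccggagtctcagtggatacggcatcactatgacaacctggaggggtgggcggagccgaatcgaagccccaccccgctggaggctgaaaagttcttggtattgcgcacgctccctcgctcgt
COX6A1: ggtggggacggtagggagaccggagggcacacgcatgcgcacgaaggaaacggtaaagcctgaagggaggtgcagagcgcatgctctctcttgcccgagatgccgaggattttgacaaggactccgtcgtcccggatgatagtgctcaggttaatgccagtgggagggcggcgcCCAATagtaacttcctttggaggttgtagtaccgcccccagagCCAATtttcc

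The gene that fell, ATP5MC1, holds 3 of its 4 CCAAT boxes in the printed stretch, and COX6A1, which rose, holds both of its own. CCAAT was also found before the start of NDUFA6 and ATP5MC2, which rose, and of UQCRC2, which fell at the FDR alone. Their stretches were too short to be printed. The printed stretches of NDUFC1 and NDUFA8 hold no match to any of the 5 motifs searched. Over windows from 250 bases before to 50 after the start, 61 of 73 members had an entry. The motif of NRF1 was in 24.6% of them against 6.29% of all 27305 promoters, CCGGAAG, the motif of ETS factors such as GABP, in 29.5% against 10.6%, and AAGATGGC, the motif of YY1, in 18% against 3.01%. ACGTG, the core of the hypoxia response element, was in 27.9% of member windows against 21.6% of all, and CCAAT in 32.8% against 35.7%, both strands being searched throughout. ACGTG was in 6 of the 32 windows of members that rose at 1% O2, 3 of the 9 that fell and 8 of the 20 that did not pass the FDR. A match is a description of letters and not of a bound site.

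Complex II links the citric acid cycle to the chain and is encoded wholly in the nucleus. SDHA, SDHB and SDHD rose at 1% O2 and fell with 32-134D at the FDR alone, and SDHC passed the FDR in neither comparison. SDHD, a membrane anchor that helps to bind heme and ubiquinone, had the largest change of the complex, with 26.5, 16.5 and 21.1 CPM in vehicle 20% O2, 39.5, 41.7 and 43.5 in vehicle 1% O2 and 30.4, 28.4 and 24.7 in 32-134D 1% O2. The groups did not overlap between vehicle 20% and 1% O2, and the log2 change was 0.93 ± 0.13 (edgeR FDR = 2.36e-05), followed by -0.57 ± 0.12 with the compound (edgeR FDR = 0.0015).

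SDHC, the partner anchor of SDHD, stood at 62.8, 63.0 and 62.1 CPM, then at 56.1, 60.7 and 58.4, then at 62.7, 60 and 51.2. The vehicle 1% O2 libraries were all slightly below those of vehicle 20% O2, and the 32-134D libraries overlapped both. Its log2 change at 1% O2 was -0.10 with a 95% interval from -0.28 to 0.077. The difference between the anchors was not itself tested.

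SDHA, the flavoprotein that oxidizes succinate, stood at 37.1, 37.2 and 35.6 CPM, then at 52.2, 52.9 and 55.7, and with 32-134D at 39.5, 36.5 and 34.8. All vehicle 1% O2 libraries were above the rest, with a log2 change of 0.55 ± 0.078 (edgeR FDR = 2.63e-05). Its pseudogenes (SDHAP1 to SDHAP3 by name) carry 68.5% as many counts as SDHA itself, so reads may be split between near-identical copies. SDHB, the iron-sulfur subunit that carries electrons to the anchors, stood at 36.1, 33.1 and 35.2 CPM, at 51.1, 52.3 and 53.7, and with 32-134D at 41.3, 40.4 and 42.0, between the other groups, with log2 changes of 0.58 ± 0.074 (edgeR FDR = 8.39e-06) and -0.34 ± 0.071 (edgeR FDR = 9.91e-04).

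Complex III, the cytochrome bc1 complex, held a pair of related subunits that moved in opposite directions. UQCRC1 and UQCRC2 are the core proteins on its matrix side, related to mitochondrial processing peptidase. UQCRC2 (chromosome 16) stood at 118, 110 and 118 CPM in vehicle 20% O2, fell to 74.4, 79.3 and 82.0 in vehicle 1% O2 and stood at 112, 106 and 112 in 32-134D 1% O2. UQCRC1 (chromosome 3) stood at 219, 213 and 188 CPM, at 266, 288 and 298 and at 200, 193 and 181 in the same order. The vehicle 1% O2 libraries were the lowest for UQCRC2 and the highest for UQCRC1, with no overlap in either. The log2 change at 1% O2 was -0.56 ± 0.070 for UQCRC2 (edgeR FDR = 7.69e-06) and 0.46 ± 0.078 for UQCRC1 (edgeR FDR = 1.31e-04), and with 32-134D it was 0.49 ± 0.069 (edgeR FDR = 3.81e-05) and -0.57 ± 0.077 (edgeR FDR = 2.58e-05). Both stayed under 1.5-fold at 1% O2 with TMM scaling.

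Of the other complex III members, UQCRB, UQCRH and the Rieske iron-sulfur protein UQCRFS1 also rose at the FDR alone. UQCRH, the hinge protein at the cytochrome c docking side, stood at 104, 90.9 and 87.7 CPM, at 129, 136 and 138 and at 100, 98.9 and 95.5, with a log2 change of 0.51 ± 0.076 (edgeR FDR = 4.06e-05). UQCRQ, a small subunit near the ubiquinone site, overlapped between the vehicle groups, with 87.4, 75.7 and 69.1 CPM at 20% O2 against 69.9, 76.7 and 78.4 at 1% O2, and it stood at 70.7, 68.6 and 54.4 with 32-134D. The 95% interval of its log2 change at 1% O2 ran from -0.27 to 0.19.

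Complex IV, cytochrome c oxidase, was the only complex in which every nuclear subunit examined (9 of 9) rose at the FDR alone with TMM scaling, and none fell. With upper-quartile scaling 4 of the 9 rose, with total library size 3, and after the length trend was removed 7, and none fell under any of them. COX6A1, the form of subunit 6A found outside muscle, stood at 140, 112 and 110 CPM, at 178, 203 and 205 and at 126, 122 and 117. All vehicle 1% O2 libraries lay above the rest, and its log2 change was 0.69 ± 0.094 (edgeR FDR = 1.75e-05).

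COX6C stood at 54.1, 38.3 and 41.3 CPM in vehicle 20% O2, 65.3, 73.9 and 69.8 in vehicle 1% O2 and 53.9, 49.4 and 49.6 in 32-134D 1% O2. COX7B, a small membrane subunit, stood at 47.0, 40.0 and 37.6, at 55.1, 61.4 and 61.4 and at 43.7, 42.9 and 38.4 CPM. The vehicle groups did not overlap for either gene, with log2 changes of 0.64 ± 0.11 (edgeR FDR = 1.54e-04) for COX6C and 0.51 ± 0.096 (edgeR FDR = 3.11e-04) for COX7B. COX5A, a matrix-side subunit, had the smallest change of the complex, with 109, 98.8 and 93.4 CPM at 20% O2, 115, 119 and 113 at 1% O2 and 110, 106 and 106 with 32-134D, a log2 change of 0.20 ± 0.073 (edgeR FDR = 0.030).

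ATP synthase contains the member with the largest fall. Its c-ring is made from 3 genes, ATP5MC1, ATP5MC2 and ATP5MC3, whose import sequences differ but whose mature protein is the same. ATP5MC1 stood at 30.8, 22.1 and 22.5 CPM in vehicle 20% O2, 12.5, 14.9 and 16.2 in vehicle 1% O2 and 23.1, 20.8 and 15.5 in 32-134D 1% O2. ATP5MC2 moved the other way, with 147, 127 and 126, then 207, 228 and 228, then 144, 144 and 126 CPM, and ATP5MC3 did so less, with 171, 154 and 147, then 195, 198 and 202, then 165, 157 and 133 CPM. Neither vehicle group overlapped the other for any of the 3 genes, and ATP5MC1 in 32-134D replicate 3 lay within the range of vehicle 1% O2. The log2 changes at 1% O2 were -0.80 ± 0.16 for ATP5MC1 (edgeR FDR = 6.58e-04), 0.73 ± 0.083 for ATP5MC2 (edgeR FDR = 2.95e-06) and 0.34 ± 0.086 for ATP5MC3 (edgeR FDR = 0.0039). ATP5MC1 passed both thresholds at 1% O2 under every scaling, filter and left-out library tried, and it was the least abundant of the 3 by CPM in every library.

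The 5 subunits of the F1 head, where ATP is made, changed little at 1% O2, and 1 of them rose. That was the catalytic beta subunit ATP5F1B, with 605, 586 and 582 CPM in vehicle 20% O2, 782, 803 and 799 in vehicle 1% O2 and 637, 611 and 541 in 32-134D 1% O2, and a log2 change of 0.43 ± 0.072 (edgeR FDR = 1.23e-04). The rotor shaft ATP5F1C overlapped across all groups, at 111, 89.3 and 94.0, at 103, 94.9 and 101, and at 97.6, 94.7 and 79.8 CPM, with a 95% interval of the log2 change at 1% O2 from -0.19 to 0.22. In the stalk and membrane part 3 of 7 rose and none fell at the FDR alone. One was ATP5PO, which joins the stator to the head, with 42.6, 35.3 and 32.9, then 52.8, 58.4 and 55.6, then 39.8, 34.6 and 36.3 CPM and a log2 change of 0.59 ± 0.10 (edgeR FDR = 1.39e-04), just past 1.5-fold. With total library size the median of the 15 ATP synthase genes turned from 0.14 to -0.078.

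**Figure D2:**
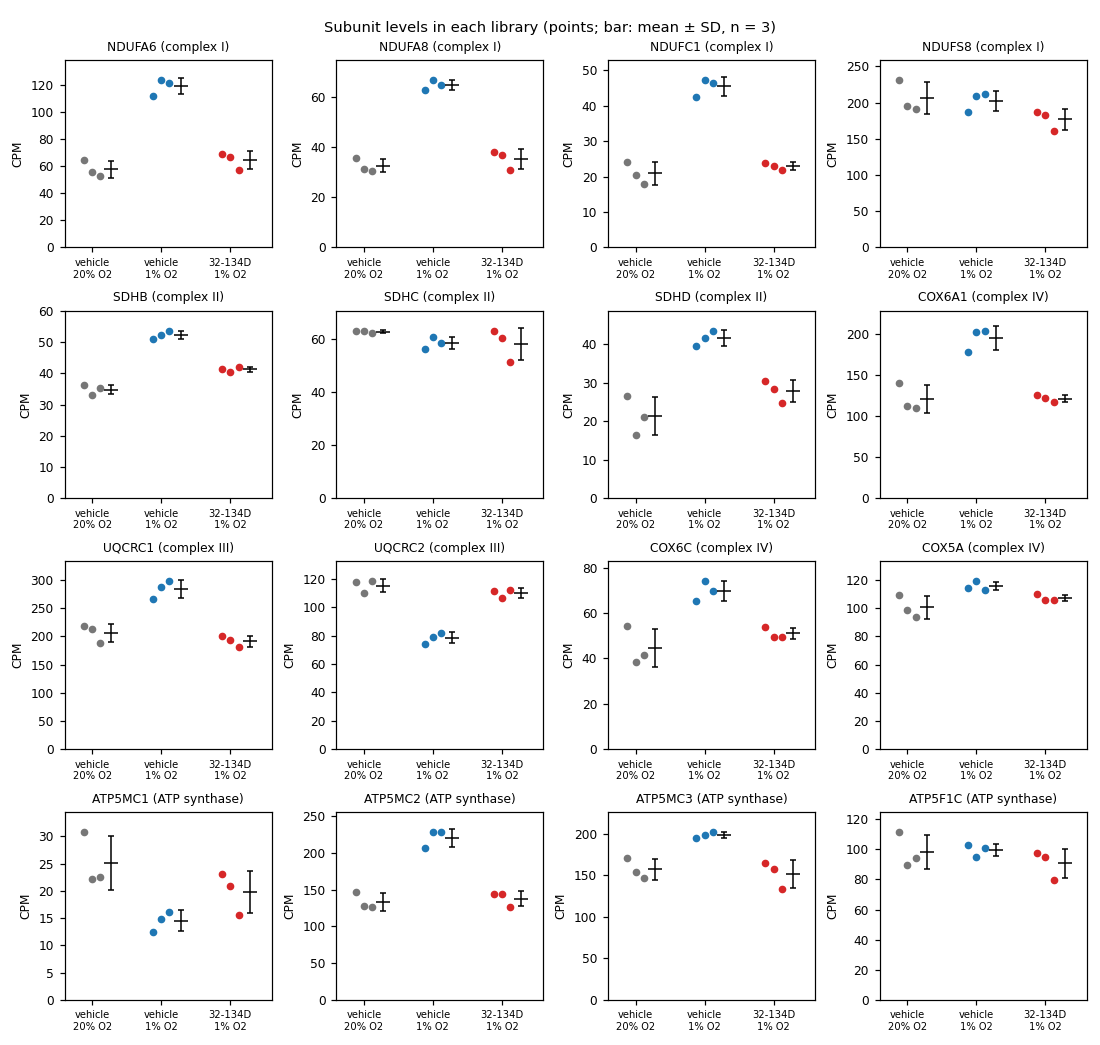
Levels of 16 subunits in every library, in TMM-scaled CPM on axes that start at 0. Points are the 3 libraries of each group and the bar beside them is the mean ± SD. In UQCRC2 and ATP5MC1 the vehicle 1% O2 libraries are the lowest (74.4 to 82.0 and 12.5 to 16.2 CPM, the latter sharing part of the 32-134D range), while in UQCRC1 and ATP5MC2 they are the highest (266 to 298 and 207 to 228 CPM).

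Levels per transcript length also differed between complexes. In TPM (counts per median annotated transcript length, scaled to an equal total in each library), the median member of complex IV stood at 387 in vehicle 20% O2, that of ATP synthase at 326, of complex III at 230, of complex I at 120 and of complex II at 56.6. The most abundant member on this scale was NDUFS8 at 742 TPM in vehicle 20% O2, followed by ATP5F1B as the highest of ATP synthase at 662, and the lowest was NDUFA7 at 2.58. In vehicle 1% O2 the medians were 405 for complex IV, 300 for ATP synthase, 215 for complex III, 127 for complex I and 77.6 for complex II. Those of ATP synthase and complex III were thus lower than in vehicle 20% O2 on this scale, which takes no TMM factor. There ATP5F1B stood at 716 TPM. NDUFS8 stood at 586, lower than in vehicle 20% O2 although its TMM-scaled CPM changed little. ATP5MC1, at 44.5, was the lowest gene of ATP synthase in vehicle 1% O2. The summed level of all members was 6744 ± 617 CPM (SD, n = 3) in vehicle 20% O2, 8061 ± 362 in vehicle 1% O2 and 6420 ± 406 in 32-134D 1% O2. As a share of raw counts the same sums were 0.713 ± 0.070%, 0.734 ± 0.020% and 0.666 ± 0.041%, so that on this scale the vehicle groups differed by less than the spread between libraries.

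The second comparison asked how the HIF inhibitor changed subunit transcripts at 1% O2. The direction was opposite for most members: 45 fell and 3 rose at the FDR alone (61.6% and 4.11%), beside 25.5% and 21.9% of all genes tested. Past 1.5-fold as well, 8 fell and 0 rose, beside 13.7% and 16.2% of all genes, and DESeq2 at both thresholds called 5 of 73. The 8 were NDUFC1, NDUFA6, NDUFA8, NDUFA1, ATP5MC2, ATP5PO, COX6A1 and COX8A. The members' median log2 fold change was -0.34 against -0.012 for all genes, and the libraries did not overlap for 52 members on the lower side (30.8% of all genes) and 2 on the higher side (25.4%). With total library size the median was -0.15 against 0.17 for all genes, with 25 down and 5 up at the FDR alone. This comparison shares its vehicle 1% O2 libraries with the first, so the opposite directions of the values are not independent of each other.

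By complex, 8 of 9 complex IV members fell with 32-134D at the FDR alone and COX5A did not pass, with a log2 change of -0.11 (edgeR FDR = 0.23). In complex I, 18 of 30 accessory subunits fell and none rose, and of the 7 core subunits NDUFS3 fell and NDUFS1 rose. In ATP synthase 10 of 15 fell, including 4 of the 5 F1 head subunits, and ATP5MC1 rose by 0.46 ± 0.16 (edgeR FDR = 0.026). Of the F1 head genes, ATP5F1B passed the FDR in 20 of 20 alternative fits, ATP5F1E in 9, and ATP5F1A and ATP5F1D in 3 each. ATP5F1A stood at 357, 335 and 299 CPM with 32-134D, ATP5F1D at 211, 205 and 177 and ATP5F1E at 132, 133 and 117, each lowest in replicate 3. In complex III 5 of 8 fell and UQCRC2 rose. COX8A, a small membrane subunit of complex IV, fell by 0.60 ± 0.11 on the log2 scale (edgeR FDR = 4.77e-04), and NDUFA1, an X-linked subunit of the membrane arm, by 0.59 ± 0.12 (edgeR FDR = 9.09e-04). Both were past 1.5-fold only narrowly, and leaving out vehicle 1% O2 replicate 3 took both calls away, bringing the number of members down past both thresholds from 8 to 4, while leaving out vehicle 1% O2 replicate 1 brought it to 12. Without 32-134D replicate 3, the library that stood furthest apart, 5 fell and 1 rose past both thresholds, 42 fell and 3 rose at the FDR alone, and the median was -0.25 against -0.029 for all genes. The number down was also 5 without vehicle 1% O2 replicate 2 or vehicle 20% O2 replicate 1, and in each of these 3 fits COX8A and NDUFA1 were lost.

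**Figure D3:**
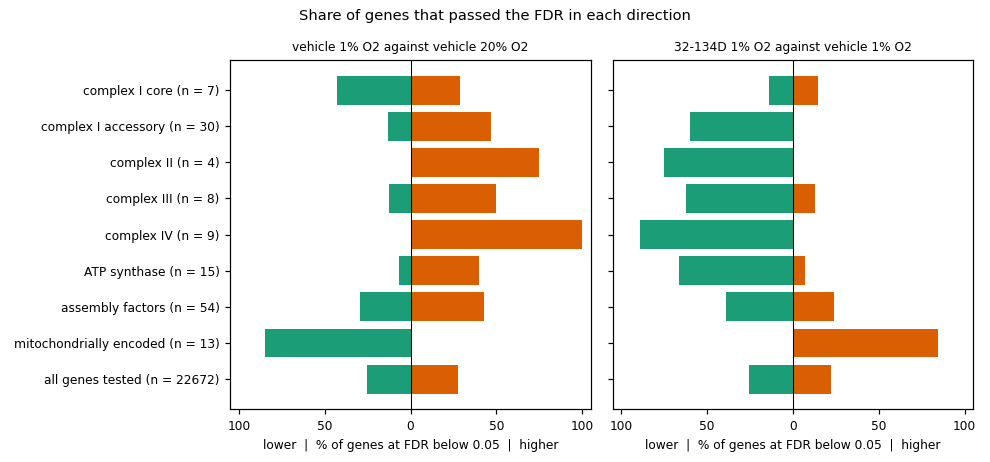
The horizontal axis is the percent of genes in each list that passed an FDR of 0.05, higher to the right (orange) and lower to the left (green), in vehicle 1% O2 against vehicle 20% O2 (left panel) and in 32-134D 1% O2 against vehicle 1% O2 (right panel), with TMM scaling. The bars of the nuclear complexes lie mostly to the right in the left panel and to the left in the right panel. Complex I core is the exception (28.6% higher and 42.9% lower, then 14.3% each way). The bars of the 13 mitochondrially encoded subunits lie opposite to most nuclear ones (84.6% lower, then 84.6% higher).

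The last comparison set 32-134D at 1% O2 beside vehicle at 20% O2. No member passed both thresholds with edgeR (0 up and 0 down, beside 3% and 0.516% of all genes) or with DESeq2. At the FDR alone edgeR called 1 member, NDUFB7, which fell (beside 2.44% of all genes lower and 7.81% higher), and DESeq2 called 5, and 14 members had an unadjusted p below 0.05. NDUFB7, a membrane-arm subunit named after its values were seen, stood at 116, 106 and 95.0 CPM in vehicle 20% O2, 76.5, 87.1 and 89.6 in vehicle 1% O2 and 89.3, 88.6 and 75.8 in 32-134D 1% O2. It was thus low in both 1% O2 groups, with a log2 change of -0.32 ± 0.095 against vehicle 20% O2 (edgeR FDR = 0.046).

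The 95% interval of the log2 change lay within 1.5-fold either way for 41 of 73 members in the first comparison and 38 in the second. In this last comparison it did so for 69 of 73 members. The exceptions were SDHD (0.077 to 0.64 on the log2 scale), ATP5MC1 (-0.68 to 0.0014), NDUFV2 (-0.21 to 0.69) and NDUFA7 (-0.15 to 1.2), named after their values were seen. The libraries did not overlap for 3 members on the higher side and 12 on the lower side, beside 17% and 12.8% of all genes. The median was -0.063 against -0.0028 for all genes, and without vehicle 20% O2 replicate 1 it was 0.025, so its sign rested on that library. Without 32-134D replicate 3 it was -0.031, and edgeR called 1 member up and 0 down at the FDR alone.

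**Figure D4:**
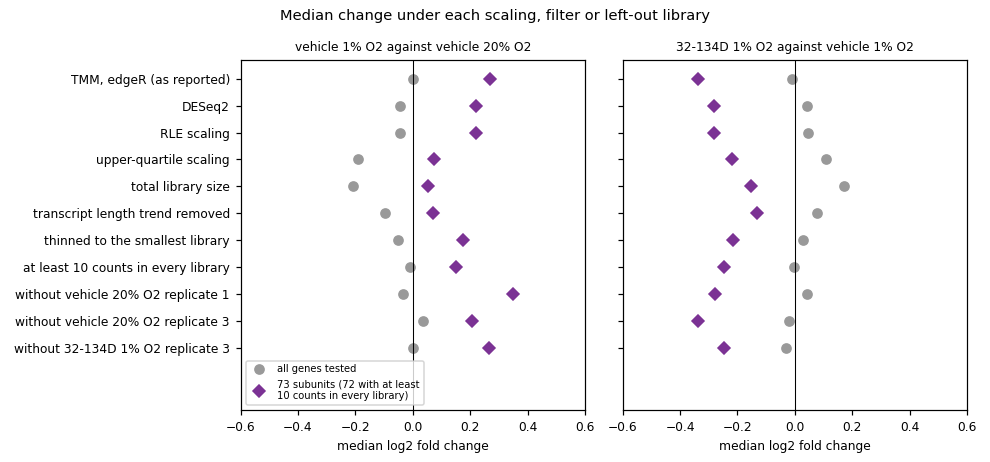
Each row is a scaling, a filter, a tool or a left-out library. The horizontal axis is the median log2 fold change of the subunits (purple diamonds) and of all genes tested (grey circles), for vehicle 1% O2 against vehicle 20% O2 (left) and 32-134D 1% O2 against vehicle 1% O2 (right). The subunits lie to the right of all genes in every row on the left and to the left of them in every row on the right, but their distance from 0 varies, from 0.05 with total library size to 0.35 without vehicle 20% O2 replicate 1 in the left panel.

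The subunits encoded by mitochondrial DNA moved against their nuclear partners. Of 13, none rose and 11 fell at 1% O2 at the FDR alone, 8 of them past 1.5-fold, with a median log2 change of -0.91, and with 32-134D 11 rose and none fell, with a median of 0.71. Their summed level was 30720 to 31730 CPM in vehicle 20% O2, 21310 to 21510 in vehicle 1% O2 and 28670 to 31320 in 32-134D 1% O2. The group ranges for vehicle 20% and 1% O2 were thus far apart. The share of all counts from the mitochondrial genome, ribosomal RNA included, was 3.91%, 4.44% and 4.19% on average and did not follow the subunits.

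MT-ND6, the complex I subunit on the light strand, had the largest change, with 147, 154 and 165 CPM in vehicle 20% O2, 33.6, 34.2 and 35.7 in vehicle 1% O2 and 116, 129 and 95.3 in 32-134D 1% O2. MT-CO3 of complex IV stood at 3348, 3109 and 3003 CPM, at 946, 860 and 918 and at 2699, 2527 and 2326 in the same order. MT-ND1 of complex I stood at 1676, 1837 and 1783 CPM, at 584, 541 and 537 and at 1660, 1489 and 1294. For all 3 genes every vehicle 1% O2 library lay below every other library, and their log2 changes at 1% O2 were -2.17 ± 0.10 (edgeR FDR = 3.24e-10), -1.80 ± 0.079 (edgeR FDR = 1.91e-10) and -1.67 ± 0.089 (edgeR FDR = 1.21e-09).

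Assembly factors, which build the complexes without remaining in them, were mixed. Of 54, 23 rose and 16 fell at 1% O2 at the FDR alone (42.6% and 29.6%, beside 27.9% and 25.6% of all genes). With total library size the counts at 1% O2 were 15 and 23. With 32-134D 13 rose and 21 fell (24.1% and 38.9%, beside 21.9% and 25.5% of all genes). For complex I factors the median at 1% O2 was below 0 (-0.33, with 6 up and 9 down of 18). TMEM70, which helps to assemble the c-ring, rose from 24.5, 19.5 and 19.6 CPM to 64.8, 67.2 and 63.1 and stood at 32.2, 30.5 and 27.9 with 32-134D, log2 changes of 1.61 ± 0.10 (edgeR FDR = 4.94e-09) and -1.11 ± 0.094 (edgeR FDR = 2.95e-07).

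COA8, a complex IV factor, rose from 14.1, 8.17 and 11.5 CPM to 32.5, 37.6 and 35.2 and stood at 15.7, 15.5 and 17.0 with 32-134D, a log2 change at 1% O2 of 1.59 ± 0.14 (edgeR FDR = 1.66e-07). COX10, which takes part in making the heme of complex IV, rose by 1.05 ± 0.084 (edgeR FDR = 7.36e-08), and SDHAF1, which helps to place iron-sulfur clusters in SDHB, by 1.05 ± 0.10 (edgeR FDR = 6.58e-07). For all 3 the vehicle 1% O2 libraries lay above every other library. The complex I factor ACAD9 fell from 71.3, 69.1 and 75.0 CPM to 31.8, 33.0 and 36.1 and stood at 64.5, 60.9 and 57.8 with 32-134D, a log2 change at 1% O2 of -1.10 ± 0.080 (edgeR FDR = 2.74e-08). LYRM7, which stabilizes the Rieske protein, fell from 10.1, 8.48 and 9.46 CPM to 4.43, 3.82 and 4.63 and stood at 8.68, 7.81 and 11.1, a change of -1.13 ± 0.16 (edgeR FDR = 2.28e-05). Electron carriers and the inhibitor of ATP synthase formed another list. ATP5IF1, the inhibitor, stood at 60.1, 61.4 and 54.7 CPM, at 28.6, 30.8 and 31.5 and with 32-134D at 47.2, 46.4 and 31.6, the last in the replicate 3 that stood apart, and its log2 change at 1% O2 was -0.95 ± 0.13 (edgeR FDR = 1.40e-05). ETFDH, which feeds electrons from fatty acid oxidation to ubiquinone, rose from 17.4, 16.0 and 17.9 CPM to 32.3, 29.6 and 28.2 and stood at 21.4, 20.5 and 25.4, a log2 change of 0.80 ± 0.11 (edgeR FDR = 1.34e-05).

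Isoforms and subunits outside the 73 included the widest changes. NDUFA4L2, a known HIF target related to a complex IV subunit, stood at 2.44, 1.88 and 2.46 CPM, at 11.1, 10.3 and 9.68 and with 32-134D at 2.92, 2.96 and 3.25, with log2 changes of 2.14 ± 0.16 (edgeR FDR = 2.65e-08) and -1.77 ± 0.14 (edgeR FDR = 1.45e-07). COX7A2L, which takes part in joining complexes III and IV, rose from 56.9, 45.7 and 42.8 CPM to 119, 130 and 128 and stood at 64.6, 64.2 and 61.4 with 32-134D, a log2 change at 1% O2 of 1.37 ± 0.096 (edgeR FDR = 1.72e-08). In both genes the vehicle 1% O2 libraries lay far above the rest. COX4I2, the isoform of subunit 4 tied to low oxygen, had 47 counts in all, and stood at 0.345, 0.424 and 0.795 CPM in vehicle 1% O2 and at no more than 0.0717 in any other library. Of the 9 genes tested here, 8 rose at 1% O2 and 8 fell with 32-134D at the FDR alone, and with total library size 3 rose and none fell at 1% O2.

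Transcription factors and coactivators that regulate respiratory-chain genes were followed as a list of 10, of which 8 rose and 2 fell at 1% O2 at the FDR alone (7 and 2 with total library size), and 2 rose and 8 fell with 32-134D. NRF1 stood at 25.2, 25.4 and 25.4 CPM in vehicle 20% O2, 53.5, 51.8 and 51.5 in vehicle 1% O2 and 32.3, 35.8 and 30.5 in 32-134D 1% O2. GABPB1, a subunit of the ETS factor GABP, stood at 29, 22.9 and 22.5, at 49.5, 52.7 and 53.3 and at 30.0, 30.1 and 30.3 CPM. Both were highest in all vehicle 1% O2 libraries, with log2 changes of 1.04 ± 0.083 (edgeR FDR = 6.80e-08) and 1.06 ± 0.098 (edgeR FDR = 3.15e-07). The coactivator gene PPARGC1B, with 123 counts in all, fell from 0.502, 0.471 and 1.13 CPM to 0.133, 0.0471 and 0.104 and stood at 0.425, 0.909 and 1.14 with 32-134D.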

How the data were processed

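RNA-seq was measured in 9 Hep3B libraries, 3 per group. The authors trimmed reads with Bbduk, mapped them with STAR to GRCh38 (Ensembl 100) and deposited raw counts per gene from featureCounts. Versions, the strand setting and the treatment of reads that map to several places are not given in the sources used here. The labels name a DMEM/F12 medium and the study's methods another, and no dose is in the labels.

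Genes with at least 10 counts in all (22672 of 60683) were fitted over all 9 libraries with edgeR 4.0.16 (R 4.3.3) by TMM scaling and the quasi-likelihood test, two-sided, with Benjamini-Hochberg adjustment over all genes. A gene was called when its FDR was under 0.05 and its change exceeded 1.5-fold. The standard error is the log2 fold change divided by the square root of F. CPM used TMM-scaled totals, and TPM and positions used GENCODE 29. Promoters came from RefSeq (GRCh38.p14), using the most upstream start of each gene. Pipelines were tested on simulated data. The labels describe biological replicates in wells of culture plates, so p-values measure the spread between wells.

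Values in all libraries are given for, in each complex, the 3 members of smallest FDR and the 1 of smallest change at 1% O2, the c-ring genes, and members called against the majority. Genes of other lists were named from the 3 called genes of largest change in each list, some by their log2 change alone. Single marker genes were named after their values were seen. Members and lists were chosen with earlier results of these data known. Alternatives were DESeq2 1.42.0, RLE, upper-quartile and total scaling, filters, thinning, a length-trend offset (lowess per library), a replicate block, pairwise fits and leaving out each library. Replicates of a group differed by more than sampling noise. ATP5MJ and ATP5MK were matched by identifier to the older symbols ATP5MPL and ATP5MD.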

Additional observations from a re-analysis of the deposited data

How the results depend on the processing

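The direction of the members' median at 1% against 20% O2 and with 32-134D at 1% O2 was the same under every alternative run, but its size and the counts past both thresholds followed the scaling and the filter. At 1% O2, with 11 members up and 1 down as reported, the count up was 4 and the count down 2 with total library size, with upper-quartile scaling and after removal of the length trend, with medians of 0.052, 0.074 and 0.070. It was 7 up and 2 down after thinning, 5 up and 2 down when each library had to hold 10 counts or more, and 2 down with DESeq2 or RLE. Without a fold threshold 38 rose and 9 fell, and above 2-fold 2 rose and 0 fell. With 32-134D at 1% O2, with 8 down and 0 up as reported, 3 fell with total library size (2 up, median -0.15), upper-quartile scaling (1 up, -0.22) or the length trend removed (2 up, -0.13), 5 with DESeq2, RLE, only the groups compared or thinning (1 up, -0.22), and 4 when each library had to hold 10 counts or more, while 45 fell and 3 rose without a fold threshold and 0 fell above 2-fold. Against vehicle 20% O2, 1 fell without a fold threshold.

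Leaving out each library in turn gave 6 to 14 up and 1 to 2 down at 1% O2 (6 without vehicle 20% O2 replicate 3, medians 0.21 to 0.35), 4 to 12 down and 0 to 1 up with 32-134D (medians -0.36 to -0.25), and 0 up and 0 down against vehicle 20% O2 (medians -0.12 to 0.025). Libraries with the same replicate number deviated together no more than others (correlations from -0.15 to 0.075, against -0.15 to 0.17 for different numbers). Such values cannot show whether libraries of 1 number were handled together, and the main fit did not pair them. A fit with the replicate number as a block gave 12 up and 1 down at 1% O2 and 8 down with 32-134D. Single-member results were tallied at 1% O2 and with 32-134D only for the members chosen by FDR, change or c-ring as listed above. Of these, 807 kept their side of the thresholds, 25 newly passed them, 48 no longer did and 0 reversed. Several called members, inside and outside that tally, held in only part of the fits. Inside it, ATP5PO was called in 8 of 20 alternatives at 1% O2 and in 7 with 32-134D. Outside it, of 20 alternatives, NDUFB4 was called at 1% O2 in 9, NDUFB5 in 14 and NDUFA12 in 13. With 32-134D, NDUFA1 and COX8A were called in 8 each. The shallowest library, with 6013980 counts, limits precision most for NDUFA7, which had as few as 5 counts in a library.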

Other observations

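Genes for ribosomal proteins mostly moved the same way as the nuclear subunits. Of 77 cytosolic ribosomal protein genes, 75 rose and 0 fell at 1% O2 at the FDR alone with edgeR (68 up past 1.5-fold), with a median log2 change of 0.77 and a median transcript length of 750.5 bases, and 73 fell with 32-134D at 1% O2 with a median of -0.53. With total library size 74 of them rose at 1% O2 with a median of 0.55. Of 78 mitochondrial ribosomal protein genes, which make the ribosomes that translate the 13 mitochondrially encoded subunits, 43 rose and 9 fell at 1% O2 with a median of 0.34, and 5 rose and 43 fell with 32-134D with a median of -0.29. With total library size 30 rose and 16 fell at 1% O2. After removal of the trend over transcript length, 74 cytosolic and 37 mitochondrial ribosomal protein genes rose at 1% O2 at the FDR alone.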
